A study of Mus musculus with 12 samples.

Results

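Open chromatin was followed at 10 genes in 12 maps from the mouse thymus: Casr, Tph1, Th, Ddc, Tgm4, Bpifb1, Cyp11a1, Cyp17a1, Gad1 and Sox10. Each encodes a protein that autoantibodies recognise, or are known as a target, in people who lack AIRE (autoimmune polyendocrine syndrome type 1, APS-1). The genes were chosen by name, as 10 of the 21627 protein-coding genes in the RefSeq gene table used here. The rule that chose them uses no measured value, though they were chosen with earlier results of these data known. A gene's window was its annotated span in the mouse genome build mm10 plus 1 kb on either side, and a peak belonged to the gene when it overlapped the window by at least 1 bp.

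AIRE is a nuclear protein of medullary thymic epithelial cells. There it promotes the expression of many genes that otherwise belong to single peripheral tissues, so that developing T cells meet these proteins and self-reactive ones are removed or diverted. Without AIRE, tolerance to such proteins fails, and the parathyroid, the adrenal cortex, the gonads, the gut's endocrine cells, the prostate, the airway and the pigment cells are among the tissues attacked. ATAC-seq uses a transposase that inserts into unprotected DNA, and a peak caller then marks stretches with more insertions than the background. A peak reports access to the DNA and does not measure transcription.

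The cells were mature, MHC class II-high medullary thymic epithelial cells (mTEChi), sorted from C57BL/6 mice aged 4 to 7 weeks after Liberase TH and DNase digestion of the thymus. The 12 libraries formed 6 groups of 2. The 3 mutant groups carried Aire -/- (the knockout), Aire +/C313Y or Aire +/C442G, the last 2 being heterozygous missense changes, and each had a pair of Aire +/+ libraries of its own. Wild-type pairs were matched to mutants by the shared form of their titles, which is an assumption, and the C313Y heterozygote libraries carry the numbers 2 and 3. The labels do not say whether the libraries of a group came from separate mice or from pools, so their spread may be technical. How the Aire -/- allele was made is not given in the sources used here.

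Each library contributed 1 list of peaks on chromosomes 1 to 19 and X, and the lists differed widely in length. They held 34715 and 34047 peaks in the wild types of the knockout set against 85826 and 94976 in the knockouts. The C313Y set held 75830 and 57280 peaks in the heterozygotes and 73976 and 55861 in the wild types, and the C442G set held 122326 and 115034 against 93659 and 94458. No read counts were used, so the sequencing depth is unknown, and a missing peak means one that was not called at that depth. In such bulk libraries, fewer cells with open chromatin at a gene and less open chromatin per cell cannot be told apart. Of 15 genes that mark mTEChi, 13 to 15 had a peak in each library, and 12 had one in all 12 libraries. Over all protein-coding genes, 63.5% to 77.3% had a peak in each library, so such counts do not measure purity. Of 5 markers each of cortical epithelium, fibroblasts and endothelium, 3 to 5 had a peak in each library, and of 5 B cell markers 1 to 3. Of 10 T cell markers 2 to 6 had a peak, and of 9 dendritic cell and macrophage markers 3 to 7 had one. In the knockout set some of these counts were higher in the knockouts, whose lists were longer. The T cell markers numbered 5 and 5 in the knockouts and 2 and 3 in their wild types. The dendritic cell and macrophage markers numbered 6 and 6 against 3 and 3, and the fibroblast markers 5 and 4 against 3 and 3. Others overlapped: cortical epithelium 5 and 5 against 5 and 3, B cells 1 and 3 against 1 and 1, and endothelium 3 and 4 against 3 and 3. List length and genotype cannot be told apart there. The part of these cell types in the results below was not tested.

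The promoter sequences of 4 of the genes are shown first, to show which annotated starts lay under peaks and which did not. The sequences are from RefSeq (build GRCm38.p6, which shares its coordinates with mm10) and run 5′ to 3′ on the gene's own strand over the 250 bases before an annotated start. Capitals mark bases that lay inside a peak in at least 5 libraries for the internal start of Tph1, in at least 3 libraries for the outer start of Tph1 and for Cyp11a1, and in at least 1 library for Gad1. Th has no capitals, because no library had a peak there. The stretches are chr7:46667378-46667627 and chr7:46672538-46672787 on the minus strand for Tph1, chr9:57997774-57998023 on the plus strand for Cyp11a1, chr2:70561879-70562128 on the plus strand for Gad1 and chr7:142899996-142900245 on the minus strand for Th.
Tph1, internal start: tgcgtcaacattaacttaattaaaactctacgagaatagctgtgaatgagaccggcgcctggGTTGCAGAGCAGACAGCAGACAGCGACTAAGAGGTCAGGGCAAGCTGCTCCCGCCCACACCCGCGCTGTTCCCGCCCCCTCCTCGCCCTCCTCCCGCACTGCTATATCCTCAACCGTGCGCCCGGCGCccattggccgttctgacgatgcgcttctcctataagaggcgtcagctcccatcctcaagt
Tph1, outer start: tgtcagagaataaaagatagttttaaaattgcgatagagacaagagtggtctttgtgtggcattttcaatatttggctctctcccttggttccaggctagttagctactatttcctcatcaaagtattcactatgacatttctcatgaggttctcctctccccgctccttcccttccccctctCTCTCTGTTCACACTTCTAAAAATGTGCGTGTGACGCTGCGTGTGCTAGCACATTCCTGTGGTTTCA
Cyp11a1: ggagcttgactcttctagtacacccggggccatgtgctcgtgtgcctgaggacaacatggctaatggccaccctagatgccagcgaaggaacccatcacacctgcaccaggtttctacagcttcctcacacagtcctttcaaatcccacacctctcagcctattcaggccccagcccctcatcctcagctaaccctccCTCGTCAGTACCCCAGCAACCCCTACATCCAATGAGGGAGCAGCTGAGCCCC
Gad1: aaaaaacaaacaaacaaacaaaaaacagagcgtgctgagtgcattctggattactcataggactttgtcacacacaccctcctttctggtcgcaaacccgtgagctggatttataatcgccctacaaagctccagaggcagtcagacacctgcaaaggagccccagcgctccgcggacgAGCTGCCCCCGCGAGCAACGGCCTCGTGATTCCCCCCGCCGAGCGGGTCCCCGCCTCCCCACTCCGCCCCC
Th: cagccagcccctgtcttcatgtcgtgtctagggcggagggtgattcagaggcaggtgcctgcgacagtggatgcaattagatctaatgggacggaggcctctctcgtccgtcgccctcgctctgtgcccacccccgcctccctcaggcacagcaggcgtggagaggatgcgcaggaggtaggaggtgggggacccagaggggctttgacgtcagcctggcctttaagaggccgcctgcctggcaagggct

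A peak reached into the 300 bases around the start, 250 before and 50 after, in 10 libraries at the internal start of Tph1 and in 6 libraries at its outer start. At the first start of Cyp11a1 it did so in 6 libraries and at that of Gad1 in 1, a C313Y heterozygote. Casr (a knockout library) and the outer start of Ddc (a C442G heterozygote) also had 1 library each. Both starts of Bpifb1, the second starts of Cyp11a1 and Ddc, and the starts of Th and Tgm4 had none in any of the 12 libraries. Among 21044 promoters of 17273 protein-coding genes measured in the same way, 41.0% were overlapped in all 12 libraries and 35.4% in none. None of the promoters of the 8 autoantigen genes in the sequence table was overlapped in all 12.

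The letters of these promoters do not follow their peaks in a simple way. The internal start of Tph1 holds 19 CpG dinucleotides in the 250 bases shown, Gad1 holds 17 and Th 13, against a median of 10 over the same stretch of all promoters, and their peaks were in 10, 1 and 0 libraries. The GC content was 58.8% for the internal start of Tph1, 58.0% for Gad1 and 64.4% for Th, where the median promoter had 55.6%. Both strands of all 300 bases were searched for 5 short motifs, and each motif's share of all promoters was counted in the same way. The box named for its letters TATAAA is in 12.7% of all promoters. The GC-rich box that Sp factors recognise, GGGCGG, is in 46.7%. A half-site of nuclear receptors, AAGGTCA, is in 4.06%. The E-box CACGTG is in 7.91%, and the half-site of the cAMP response element, with the letters TGACG, is in 23.8%. None of the 5 contains another, and a match is a description only. The internal start of Tph1 has GGGCGG on the opposite strand at 138 and 117 bases before the start, and all 10 libraries with a peak at this promoter covered both. GGGCGG also lies 220 bases before the start of Th, where 0 libraries covered it. On the opposite strand it lies 8 bases before the start of Gad1, covered in 1 library, and just past the first start of Cyp11a1, covered in 6. The internal start of Tph1 has TGACG as well, and its matches were covered in 4, 3 and 2 libraries. TGACG occurs 36 bases before the outer start of Tph1, in capitals above, and on the opposite strand 50 bases before the start of Cyp11a1. Th has TGACG on both strands, 45 and 42 bases before its start, in a promoter with no peak. TATAAA lies 30 bases before the start of Tgm4, which likewise had no peak there. On the opposite strand it lies 141 bases before the start of Gad1, covered in 0 libraries. At the outer start of Ddc, TATAAA and AAGGTCA lie 68 and 73 bases before the start on the opposite strand, each covered in 1 library. TGACG lies 132 bases before the first start of Bpifb1, covered in 0 libraries.

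Peaks were found in most libraries over 8 of the 10 genes. Casr, Th and Ddc had a peak in all 12 libraries, Tph1, Bpifb1, Cyp11a1 and Cyp17a1 in 11, Gad1 in 10, Tgm4 in 2 and Sox10 in none. Over all protein-coding genes 58.7% had a peak in all 12 libraries, 5.49% in 11, 67.6% in 10 or more and 16.1% in none. Every gap among the genes with 10 or 11 libraries fell in the wild types of the knockout set, whose lists were the shortest. Tph1 and Cyp11a1 lacked a peak in the first of these wild types, Bpifb1 and Cyp17a1 in the second, and Gad1 in both. The 10 windows held 301 peaks, from 7 in a wild type of the knockout set to 39 in a C442G heterozygote, and merging overlapping peaks gave 69 regions. The peaks were 63 to 1044 bp wide. As counts per 10 kb of window, averaged over the libraries, Cyp17a1 had the most (1.49), then Casr (1.13), Th (1.08), Tph1 (0.780), Cyp11a1 (0.779), Ddc (0.707), Bpifb1 (0.502) and Gad1 (0.449), with 0.0718 for Tgm4. The position of the genes in this order was not tested, and Cyp17a1 and Th, with the shortest spans, had no more than 2 peaks in any library.

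**Figure D1:**
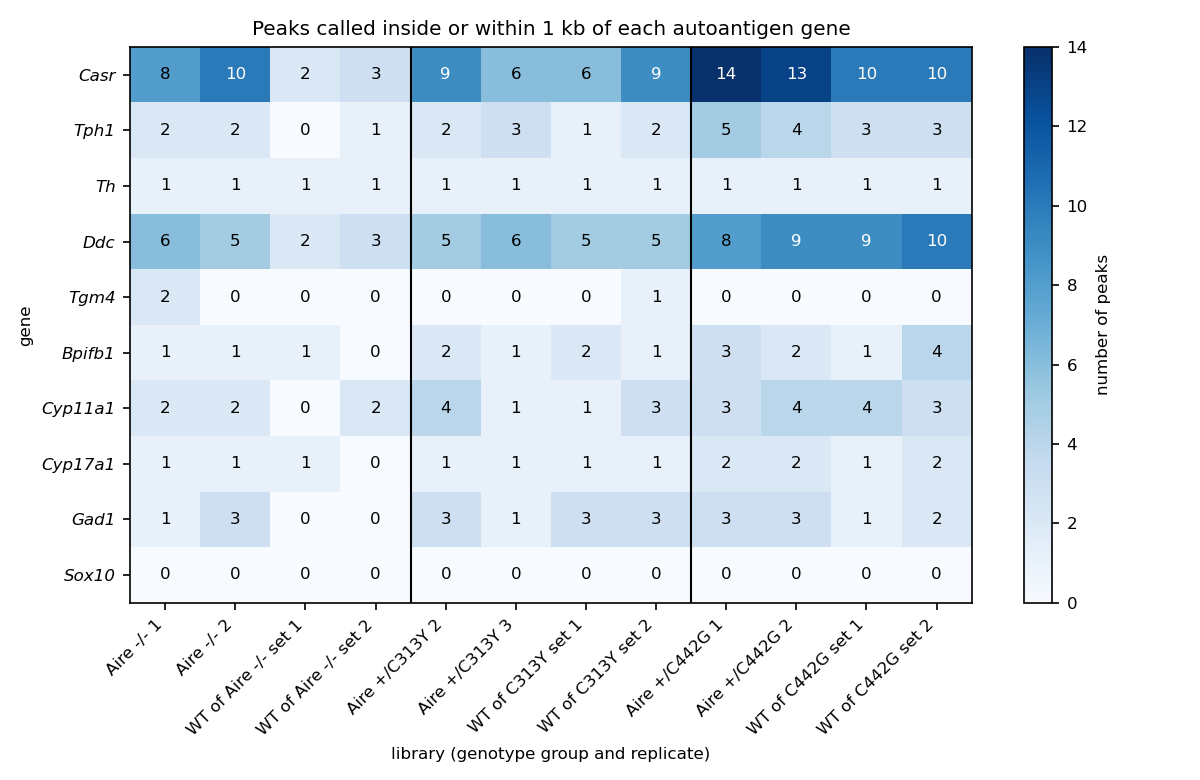
Number of peaks in the window of each gene (rows) in each of the 12 libraries (columns, grouped by contrast), with the count written in each cell. The 2 wild types of the knockout set have the fewest peaks, 7 and 10 in all, the C442G heterozygotes have 39 and 38, and the Sox10 row is 0 throughout.

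Most regions were called in few libraries. Of the 69 regions 30 (43.5%) were in 1 library only, where 40.9% of the 129764 regions in all gene windows were. All 12 libraries shared 3 of the 69 (4.35%, against 10.9% over all gene windows), 1 in Casr and 2 in Ddc. By position, 61 regions lay inside the gene, 4 crossed a gene end and 4 lay outside it. The gene table used gives no exons, so exons, introns and untranslated parts were not told apart.

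**Figure D2:**
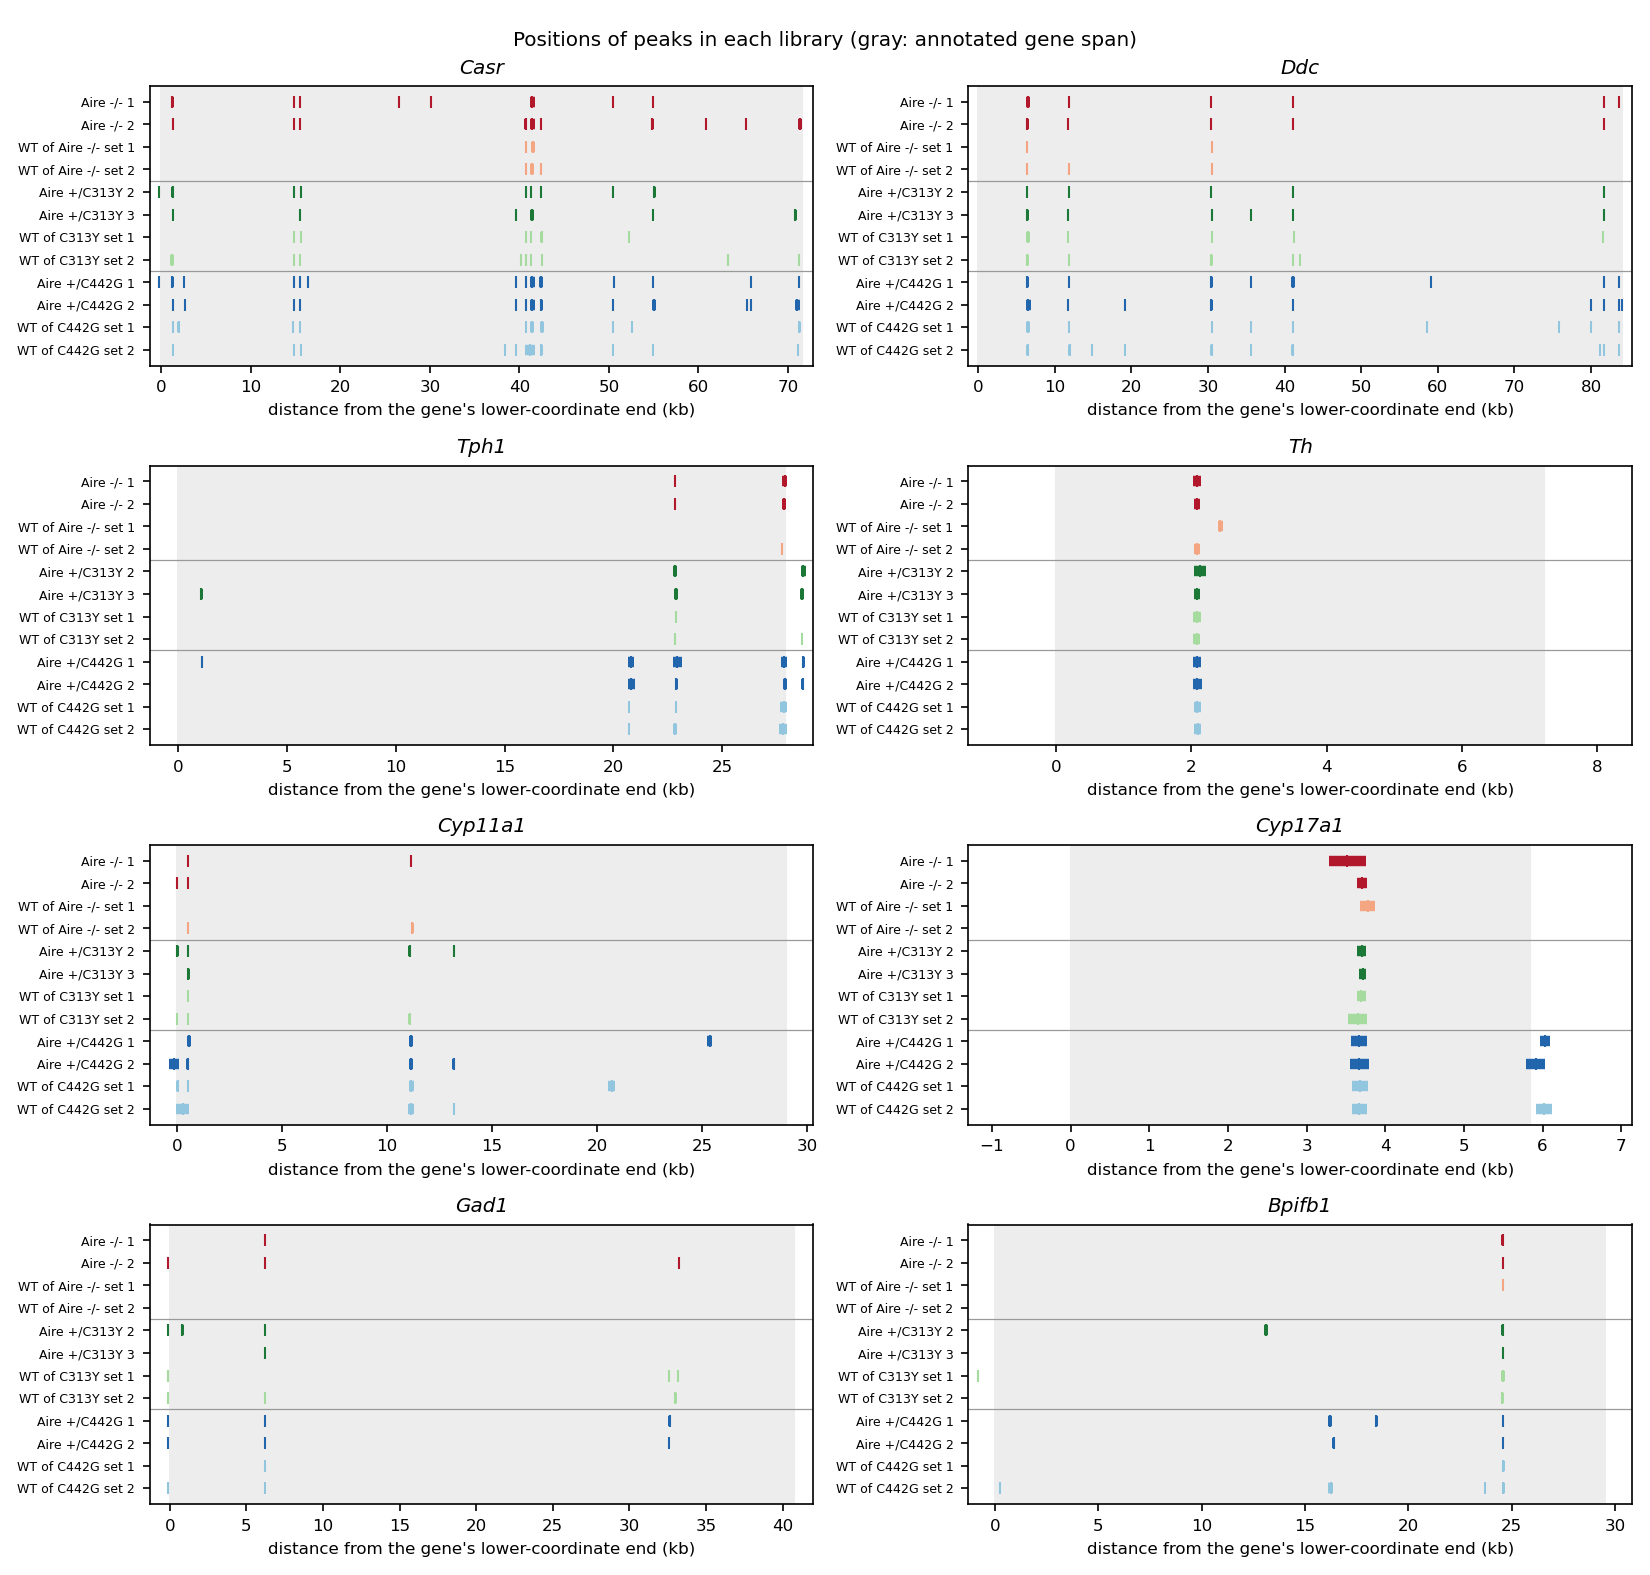
Peaks of each library (rows, labelled by group) along 8 of the genes (panels, Tgm4 and Sox10 not drawn), with distance in kb from the gene's lower-coordinate end and the annotated span in gray. Each bar is 1 peak to scale with a tick at its centre, and the columns of bars that repeat from row to row are the recurring regions, such as the 1 in Casr and the 2 in Ddc called in all 12 libraries.

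Casr encodes the calcium-sensing receptor, by which parathyroid cells read blood calcium, and lies on chromosome 16 (36490585 to 36562141, NCBI gene 12374). Its 100 peaks formed 23 regions, and 9 peaks was the median per library. The share of its window under peaks was 2.04% and 3.40% in the knockouts and 0.668% and 0.824% in their wild types. It was 2.67% and 1.74% in the C313Y heterozygotes against 1.44% and 2.34%, and 4.02% and 4.29% in the C442G heterozygotes against 3.35% and 3.44%. The mutants did not overlap the wild types in the knockout and C442G sets, and did overlap in the C313Y set. When the lists of a set were cut to equal length, both separations were lost: the Casr shares were 0.716% and 0.719% in the knockouts against 0.668% and 0.824%, and 3.13% and 3.68% in the C442G heterozygotes against 3.35% and 3.44%. In the full lists, over the 3 sets, the mutants averaged 3.03% ± 1.04 (SD, n = 6) and the wild types 2.01% ± 1.22 (SD, n = 6).

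The region of Casr shared by all 12 libraries lies at chr16:36531152-36532292, inside the gene and 29842 bp from the annotated start, and was called as 2 peaks in 9 libraries. A second region, chr16:36545239-36545895, also inside the gene, had a peak in 6 of 6 mutants and in 1 of 6 wild types, a C442G wild type. Its peaks were 84 to 446 bp wide, and it was the single region of the 10 genes gained in the C313Y set, where gained means a peak in both mutants and in neither wild type. Some of these peaks were weak. Their percentile within their own list ran from 3.19 in a knockout to 80.2, by width, in a C313Y heterozygote. In the other C313Y heterozygote it was 8.67. The share of all regions with such a split of 6 mutants and 6 wild types was not counted, here or below. Near the start, the region chr16:36561244-36562137 had a peak in 7 libraries, 4 mutant and 3 wild type. Only the peak of 1 knockout library reached the annotated start, and the others lay inside the gene.

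Tph1, Th and Ddc encode enzymes of monoamine synthesis. Tph1 is the tryptophan hydroxylase of gut enterochromaffin cells and the pineal gland, and makes the precursor of serotonin. Th, tyrosine hydroxylase, opens catecholamine synthesis, and Ddc, aromatic amino acid decarboxylase, serves both routes.

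Tph1 (chromosome 7, 46644641 to 46672537, NCBI gene 21990) was the only one of the 10 genes whose mutants lay above their own wild types in all 3 sets. The covered share of its window was 1.06% and 0.947% in the knockouts against 0% and 0.248%. In the C313Y set it was 1.31% and 1.91% in the heterozygotes against 0.331% and 0.679%, and in the C442G set 3.97% and 2.74% against 1.60% and 2.12%. The lowest mutant of each set was thus above the highest wild type of that set, while the knockouts lay below the wild types of the C442G set. Over the 3 sets the difference was 1.16 percentage points, with the mutants at 1.99% ± 1.18 and the wild types at 0.830% ± 0.843 (SD, n = 6 each). With labels exchanged within each set, the exact two-sided permutation test gave p = 0.00926, the smallest that this design allows, and an adjusted p of 0.111 (Benjamini-Hochberg over 18136 genes with a peak). Such a pattern in all 3 sets was found in 1516 of those 18136 genes (8.36%). Among lists cut to equal length within each set, the knockouts had 0% and 0.318% of the Tph1 window covered and their wild types 0% and 0.248%, which overlap. The C313Y values were the same as in the full lists, and in the C442G set they were 3.70% and 2.31% against 1.60% and 2.12%.

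The peaks of Tph1 clustered at its 2 annotated starts. The region chr7:46667383-46667777, which reaches to 6 bp from the internal start, had a peak in all 6 mutants and in 4 of 6 wild types, all but those of the knockout set. In it the peak of the C313Y heterozygotes was 166 and 222 bp wide against 99 and 92 bp in their wild types, and that of the C442G heterozygotes 383 and 184 bp against 99 and 197 bp. The widths thus separated in the C313Y set and overlapped in the C442G set. The region at the outer start, chr7:46672262-46672640, had a peak in 7 libraries and in none of the 4 libraries of the C313Y set. In 6 of the 7 the peak reached the start. A smaller one beyond that start, chr7:46673222-46673487, had peaks in 3 of 4 libraries of the C313Y set and in both C442G heterozygotes but in no library of the knockout set.

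Th (chromosome 7, 142892779 to 142899995, NCBI gene 21823) had exactly 1 peak in each library. In 11 libraries it was the same narrow peak, 86 to 182 bp wide, inside chr7:142894796-142894994, a region 5001 bp from the annotated start. The remaining library, a wild type of the knockout set, had a 73 bp peak at chr7:142895173-142895245. The covered share ranged from 0.792% in that library to 1.97% in a C313Y heterozygote. In the knockouts it was 1.26% and 0.987% against 0.792% and 0.933%, and in the C442G heterozygotes 1.24% and 1.40% against 1.13% in both wild types. The C313Y heterozygotes, at 1.97% and 1.05%, overlapped their wild types at 1.37% and 1.17%. The fold enrichment that the authors' caller gave to this peak was 9.63 and 12.7 in the C442G heterozygotes and 5.60 and 7.57 in their wild types. Each such fold belongs to its own list and was not compared across lists.

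Ddc (chromosome 11, 11814101 to 11898144, NCBI gene 13195) had 73 peaks in 16 regions. Regions chr11:11820334-11820960 and chr11:11844368-11844809, both inside the gene and far from its starts, had a peak in all 12 libraries, and chr11:11825768-11826253 had one in 11. The long non-coding RNA genes Gm51937 and 1700042O10Rik are annotated inside the Ddc window, so a peak there need not belong to Ddc alone. The covered share was 1.56% and 1.22% in the knockouts and 0.590% and 0.678% in their wild types, without overlap. With equal list length the knockouts had 1.11% and 0.614%, which overlap the same wild-type values. In the C313Y set the heterozygotes had 1.10% and 1.37% against 1.54% and 1.11%, and in the C442G set 2.46% and 2.11% against 2.09% and 2.73%, with overlap in both. A region 2207 bp from the outer start, chr11:11895645-11895937, had a peak in 6 of 6 mutants and in 2 of 6 wild types. Neither wild type of the knockout set, with the shortest lists, was among those 2. How many of all regions show such a split was not counted.

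Cyp11a1 and Cyp17a1 encode steroidogenic enzymes of the adrenal cortex and the gonads: Cyp11a1 cleaves the side chain of cholesterol to pregnenolone, and Cyp17a1 hydroxylates and then cleaves the products on the way to androgens. Cyp11a1 (chromosome 9, 57998024 to 58027031, NCBI gene 13070) had its main peaks at the start of the gene. Over the start itself, 6 libraries had a peak, 3 mutant and 3 wild type. Just inside the gene, between 57998467 and 57998677, a narrow peak was called in 10 libraries, and in a C442G wild type both were joined in 1 peak of 641 bp. The narrow peak stood at percentiles 79.0 to 96.5 of its list where called in the knockout and C442G sets. In the C313Y set, whose lists hold no strength, it stood at 37.3 to 43.4 by width. Among lists of equal length, the strongest Cyp11a1 peak ranked at 74.2 and 69.7 of 100 in the knockouts and at 79.0 in the 1 wild type of that set with a peak. In the C442G set the ranks were 95.5 and 91.8 in the heterozygotes and 94.4 and 82.2 in the wild types, which overlap. The covered share of the window differed by only −0.00914 percentage points over the 3 sets, and overlapped in each of them: 0.703% and 0.558% against 0% and 0.832% in the knockout set, 1.47% and 0.377% against 0.364% and 1.06% in the C313Y set, and 1.92% and 3.15% against 2.65% and 3.32% in the C442G set.

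Cyp17a1 (chromosome 19, 46667165 to 46673000, NCBI gene 13074) had 1 or 2 peaks in the 11 libraries with any. All 11 shared the region chr19:46670448-46671039 in the middle of the gene, where peaks were 89 to 474 bp wide. A region across the gene's upper end, chr19:46672958-46673282, had peaks in 3 libraries, all of the C442G set. The covered share was 6.05% and 1.70% in the knockouts against 2.501% and 0%, 1.48% and 1.14% in the C313Y heterozygotes against 1.45% and 3.06%, and 4.19% and 6.06% in the C442G heterozygotes against 2.60% and 5.09%. Both groups overlapped in every set, and the 2 knockouts differed from each other by more than the group means did. The long non-coding RNA genes Gm36602 and Gm41857 share parts of this window.

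Gad1 encodes a glutamate decarboxylase, which makes the transmitter GABA in neurons. On chromosome 2 (70561303 to 70602014, NCBI gene 14415) it had 0 peaks in both wild types of the knockout set and 1 and 3 in the knockouts. The covered share was 0.185% and 0.763% in these knockouts, 0.871% and 0.185% in the C313Y heterozygotes against 0.686% and 0.932%, and 0.969% and 0.796% in the C442G heterozygotes against 0.227% and 0.431%. The mutants were thus above their wild types in the knockout and C442G sets and overlapped them in the C313Y set. The peak shared by both knockouts, in chr2:70567425-70567592, lay 5296 bp from the start and was found in 6 of 6 mutants and 3 of 6 wild types. How many of all regions show such a split was not counted. The −log10 q of this peak, the caller's adjusted significance within its own list, was 2.87 and 3.62 in the knockouts, which placed it at percentiles 52.4 and 58.0 of their lists, and 6.01 to 10.1 in the 4 libraries of the C442G set. When each list of the knockout set was cut to the 34047 strongest peaks, none of its 4 libraries had a Gad1 peak. The antisense gene Gad1os overlaps the start of Gad1, and ATAC-seq peaks carry no strand.

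Bpifb1 and Tgm4 encode secreted or glandular products, an airway epithelial protein and the prostate transglutaminase that clots seminal fluid. Bpifb1 (chromosome 2, 154190818 to 154220343, NCBI gene 228801) had 1 recurrent peak, chr2:154215302-154215476, in 11 libraries, 14922 bp from the nearest annotated start. That peak was 73 to 173 bp wide, and its fold enrichment was 12.1 and 13.6 in the C442G heterozygotes and 8.02 in both wild types of that set. It was 7.35 and 6.89 in the knockouts and 4.67 in the 1 wild type of their set with the peak. As for Th, each fold belongs to its own list and was not compared across lists. The share of all genes with such an order of folds was not counted. The 6 other Bpifb1 regions were in 1 to 3 libraries each. The covered share was 0.355% and 0.295% in the knockouts against 0.232% and 0%, and overlapped in the C313Y set (0.974% and 0.311% against 0.796% and 0.435%) and in the C442G set (1.46% and 0.688% against 0.450% and 1.75%).

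Tgm4 (chromosome 9, 123034741 to 123067558, NCBI gene 331046) had 3 peaks in all, 2 of 77 and 80 bp in a knockout library and 1 of 145 bp in a C313Y wild type, at 3 separate places. The other 10 libraries had none. The nearest recurrent region lay 2673 bp outside the gene (chr9:123031517-123032068), with peaks in 6 of 6 mutants and 2 of 6 wild types. Neither wild type of the knockout set, with the shortest lists, was among those 2. How many of all regions show such a split was not counted.

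Sox10, a transcription factor of neural crest and pigment cells (chromosome 15, 79154913 to 79164490, NCBI gene 20665), had no peak in its window in any library. The closest peaks lay at chr15:79152007-79152129, 2784 bp away, in 2 mutant libraries. The closest region found in most libraries, chr15:79148596-79148858, was 6055 bp away inside the gene Polr2f and had a peak in 11 libraries.

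Set by set, the 10 genes can be read against all genes. In the knockout set 1 of the 10 genes, Gad1, was gained, which was the case for 5.42% of the 21627 genes and for 17.0% of the 6883 genes that neither of these wild types had a peak at. Of the 10 genes, 3 lacked a peak in both of these wild types (Gad1, Tgm4 and Sox10). No member was lost, where 0.0277% of all genes were. In the C313Y set no member was gained or lost (0.578% and 0.439% of all genes, and 2.55% gained of those that lacked a peak in its wild types). The same held in the C442G set (0.749%, 0.162% and 3.29%). By merged region, 8 of 69 were gained in the knockout set (11.3% of the regions in all gene windows), 1 in the C313Y set (2.38%) and 4 in the C442G set (5.17%). None of the 69 was lost in any set, against 0.0462%, 0.621% and 0.686% of all such regions. The 8 regions of the knockout set were 4 in Casr, 2 in Ddc and 1 each in Tph1 and Gad1. The counts of gained regions are near the share found over all regions.

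By covered share, both mutants lay above both wild types for 6 members in the knockout set (Casr, Tph1, Th, Ddc, Bpifb1 and Gad1), where 67.6% of all genes with a peak did. The count was 1 in the C313Y set (Tph1, against 25.2% of all genes) and 4 in the C442G set (Casr, Tph1, Th and Gad1, against 35.0%). No member lay below in any set, and the shares of all genes that did were 0.607%, 6.29% and 7.25%. With equal list length the knockout count of 6 became 2 (Th and Bpifb1, against 38.2% of 17618 genes). The C313Y count stayed at Tph1 alone (25.7%), and the C442G count became 3 (Tph1, Th and Gad1, against 23.4%). No member lay below in these lists either, where 5.28%, 7.50% and 12.9% of genes did. Within a set of 2 against 2 the smallest exact two-sided permutation p is 0.333, so no test was made there. The median difference of the 9 members with a peak was 0.474 percentage points in the knockout set, 0.0270 in the C313Y set and 0.190 in the C442G set, and over all genes 0.836, 0.136 and 0.257.

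**Figure D3:**
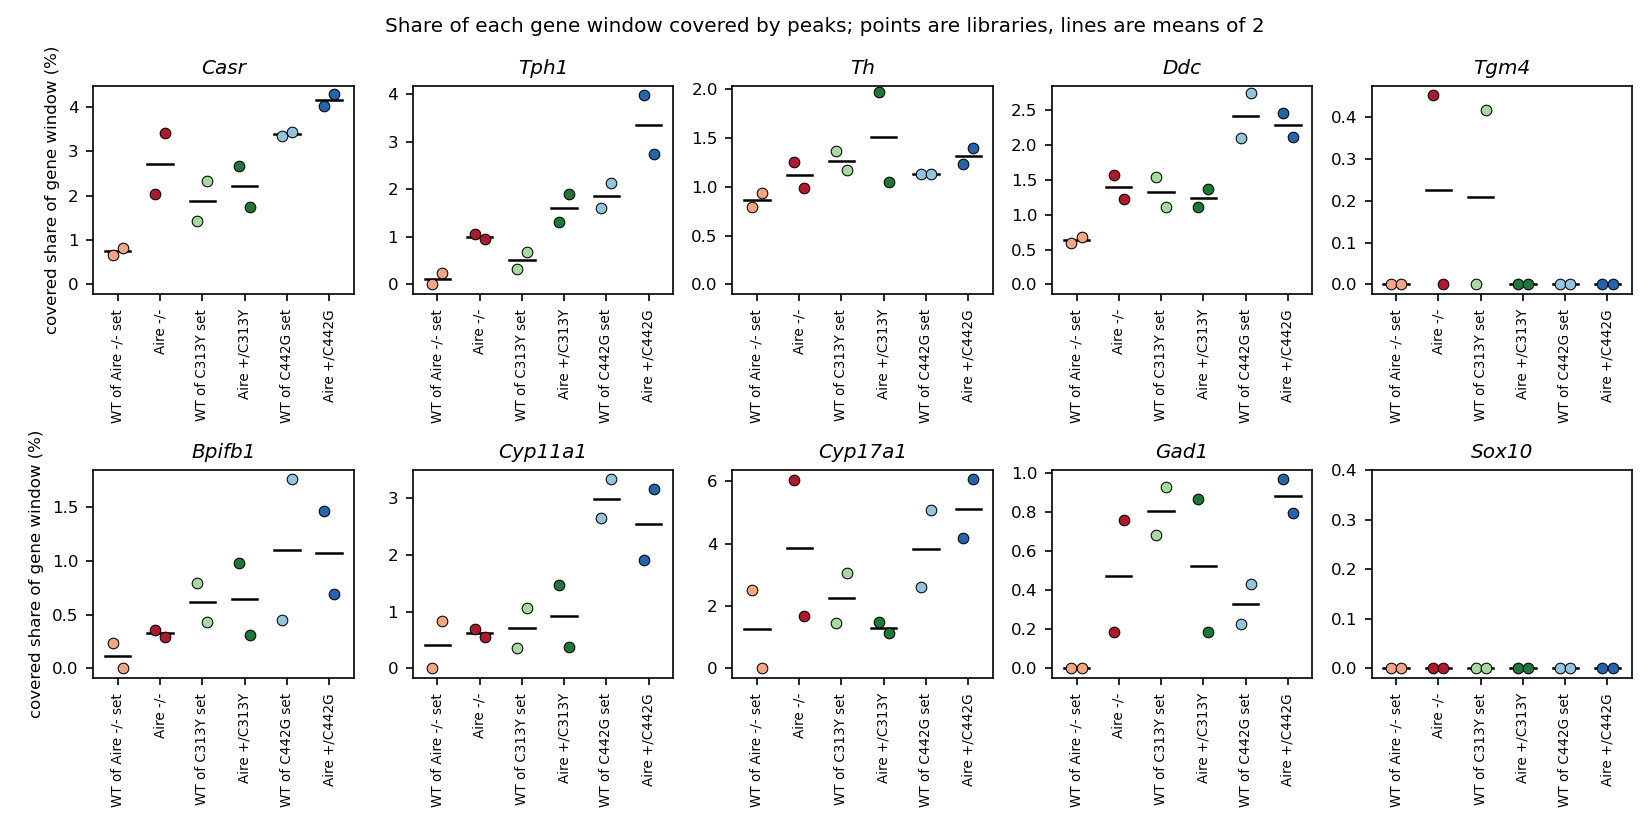
Share of each gene's window covered by peaks, in percent, for every library (points), with mutants and wild types of the 3 sets side by side, 1 panel per gene and a line at the mean of 2 libraries. Tph1 is the gene whose mutant points lie above their wild-type points in all 3 sets, and the 2 wild types of the knockout set are low for most genes.

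Over the 3 sets together, 8 of the 9 members had a positive difference, with a median of 0.231 percentage points, and 15713 of 18136 genes (86.6%) did, with a median of 0.457. None of the 9 passed the exact permutation test after Benjamini-Hochberg adjustment over all genes, and none of the 18136 genes did (0% higher and 0% lower), the lowest adjusted p being 0.111. At an unadjusted p of at most 0.05, 4890 genes stood out, 4881 higher (26.9%) and 9 lower (0.0496%). Of the members, 2 were among the higher, Tph1 as given above and Casr with a difference of 1.02 percentage points (p = 0.0278, adjusted p = 0.140, exact permutation test). With equal list length the Casr difference was 0.141 percentage points (exact permutation p = 0.537), and with a −log10 q of at least 3 it was 0.718 (exact permutation p = 0.0833). Those of Tph1 were 0.761 (exact permutation p = 0.0370) and 0.685 (exact permutation p = 0.0278). The −log10 q minimum applied to the knockout and C442G sets only, and the C313Y lists, which hold no q, entered whole. For the others the adjusted p was between 0.315 for Th and 1 for Tgm4 and Cyp11a1.

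List length moved with genotype in the knockout and C442G sets, so the rank of each gene's strongest peak was also compared among lists of equal length, the strongest 34047 peaks of each list in the knockout set and 93659 in the C442G set. The C313Y lists hold positions only, and there the widest 55861 peaks were ranked by width. A rank of 100 is the strongest peak of a list. In the knockout set 3 of the members with a peak in all 4 lists could be ranked. Ddc lay at 88.5 and 68.2 in the knockouts and at 56.0 and 43.1 in their wild types, an order without overlap that 17.3% of genes showed, and 21.8% showed the reverse. In the C313Y set Tph1 ranked higher in the heterozygotes (54.7 and 66.6 against 6.74 and 32.4), as 14.1% of genes did, and Ddc, Bpifb1 and Cyp17a1 ranked lower, as 18.1% did. In the C442G set Th ranked 83.7 and 90.5 against 70.5 and 81.0, Ddc 93.9 and 92.6 against 91.8 and 90.4, and Bpifb1 91.4 and 92.5 against 87.6 and 83.9, which is 3 of 8 members above, against 16.5% of all genes. Tph1 (47.7 and 43.1 against 61.9 and 54.4) and Gad1 (57.9 and 72.6 against 77.2 and 77.6) ranked lower there, against 21.5% of all genes. Tph1 thus ranked higher in 1 set and lower in another, by width in the first and by significance in the second. Whether the 2 sets differ was not tested.

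**Figure D4:**
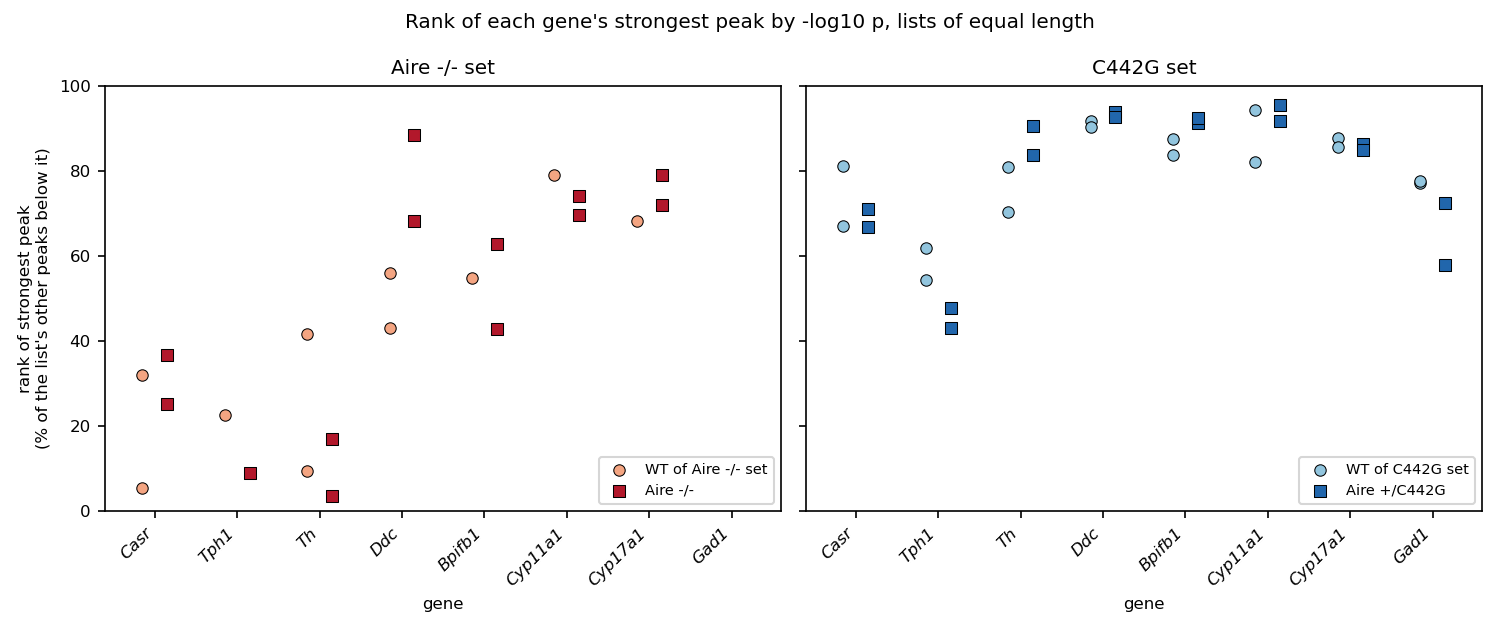
Percentile rank of each gene's strongest peak among lists of equal length within the knockout and C442G sets (panels), for every mutant (squares) and wild-type library (circles) with such a peak, 100 being the strongest. The C442G heterozygotes sit above their wild types for Th, Ddc and Bpifb1 and below them for Tph1 and Gad1.

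The C442G wild-type lists, with 93659 and 94458 peaks, are close in length to the knockout lists with 85826 and 94976, and the 2 pairs were set side by side as a check chosen after seeing the data. No member was gained or lost between them, where 0.518% and 0.865% of all genes were. The knockouts covered less of the window than both C442G wild types for Tph1, Ddc, Bpifb1 and Cyp11a1 (37.2% of all genes), and more for none (7.22%). These libraries belong to separate sets, and set and genotype cannot be told apart in this comparison.

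Genes of the same pathways and tissues, from lists chosen with earlier results known, are given by their counts, beside the 5.42% of all genes that were gained in the knockout set. Among genes with no peak in either of those wild types the share was 17.0%, and how many listed genes lacked such peaks was not counted. In the C442G set 0.749% of all genes were gained. No test of these lists was made. Of 18 other genes of monoamine synthesis and transport, 12 had a peak in all 12 libraries and 4 were gained in the knockout set, among them Slc18a2 (the vesicular transporter), Slc6a3 (the dopamine transporter) and Dbh (dopamine β-hydroxylase). In the knockout list where each ranked lower, their strongest peaks stood at percentiles 46.4, 13.9 and 3.19. None of the 18 was gained or lost in the C313Y and C442G sets. Of 16 genes of steroid hormone synthesis, 4 had a peak in all libraries and 3 in none. Nr5a1, the transcription factor of steroidogenic tissue, and Cyp19a1, aromatase, were gained in the knockout set, and Hsd17b3 in the C442G set. Of 7 GABA genes Gad2, the second glutamate decarboxylase and itself a known autoantigen, was gained in both the knockout and the C442G sets. Of 7 parathyroid genes Calcr and Cyp27b1 were gained in the knockout set.

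Among 20 other autoantibody targets of APS-1, 7 had a peak in all libraries and 4 in none, with Gad2 among those gained in the knockout set. Tgm1 was gained there among 9 transglutaminases and Bpifa5 among 16 genes of the BPI fold family. No gene was gained or lost in any set among 15 neural crest and melanocyte genes, 7 of which had a peak in all 12 libraries, or among 11 seminal and prostate proteins, 6 of which had none in any. No gene of these lists passed the exact permutation test over the 3 sets after adjustment over all genes. The median differences of the lists were between 0.0319 percentage points for the seminal and prostate proteins and 0.763 for the neural crest genes, on either side of the 0.457 over all genes.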

How the data were processed

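ATAC-seq was measured in 12 libraries of sorted mTEChi. Per the submitters' processing notes the tools were cutadapt, MACS2, Bowtie2 and Picard, all unversioned, with mm10 as the build, and the authors deposited 1 peak list per library. For 8 libraries the authors deposited a score, a fold enrichment over background (a linear ratio), −log10 p and −log10 q per peak, and the lowest −log10 q was 1.00. The score was not used. The 4 lists of the C313Y set, as deposited, hold positions only. Any control library, the shifting of reads and the handling of duplicates are not stated in the labels. The fold and −log10 values are the authors' and rank peaks within a list.

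Peaks on chromosomes 1 to 19 and X were assigned to gene windows (RefSeq table, GRCm38.p6) with python 3.11.15, pandas 2.3.3 and numpy 2.4.6. Peaks of all lists that shared at least 1 bp were merged into regions. A gene's covered share is the percent of its window under peaks. It was compared by an exact two-sided permutation test of mutant against wild type with labels exchanged within each set, adjusted over 18136 genes by Benjamini-Hochberg. The procedure was tested on simulated lists that were all derived from 1 real list, so their lengths hardly differed. How it behaves with lists as unequal as those of the knockout set was not tested. Sequences come from RefSeq promoters, which held 8 of the 10 genes. The 10 genes and all lists were chosen with earlier results of these data known. All 10 genes are reported, and of each related list up to 3 gained and 3 lost genes per set, by the rank of the strongest peak. Some genes that this rule selects are not reported here. The alternatives were a minimum −log10 q of 3, equal list length, other windows, a 50% overlap, a pool of all 6 wild types, leaving out each library in turn, and the replicate number as a block.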

Additional observations from a re-analysis of the deposited data

How the results depend on the processing

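Tph1 kept a positive difference in covered share under all 19 alternatives, from 0.685 percentage points with a −log10 q of at least 3 to 1.36 in a leave-one-out setting. Casr, Cyp17a1, Gad1 and Th also kept their sign in all 19. Casr ranged from 0.141 with equal list length to 1.37 with the replicate block. No member passed the adjusted permutation test in any setting, and the lowest adjusted p of any gene was 0.0798, without C313Y heterozygote replicate 3. With equal list length 2161 genes had an unadjusted p of at most 0.05, against 4890. The other 4 members changed sign in some settings. With a −log10 q of at least 3 the difference was −0.0326 for Tgm4, −0.0909 for Bpifb1 and 0.150 for Cyp11a1. With equal list length it was −0.0721 for Ddc and −0.0694 for Tgm4. A 2.5 kb window gave −0.0331 for Tgm4 and 0.0157 for Cyp11a1, and a 10 kb window gave 0.318 for Cyp11a1 and brought in Sox10, which has no value otherwise. In the 10 kb window 4 members, Casr, Tph1, Gad1 and Sox10, had an unadjusted exact permutation p of at most 0.05. Of all genes tested in that window 32.1% did. With 1 replicate left out, the difference ran from −0.147 to 0.287 for Bpifb1, −0.216 to 0.197 for Cyp11a1 and −0.0694 to 0.0809 for Tgm4. The cause was not tested.

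The 1 gene gained in the knockout set became 2 with a −log10 q of at least 3 (Casr and Th) and 0 with equal list length, with a 2.5 kb window, against all 6 wild types or, as an alternative chosen after seeing the data, against the C442G wild types. With 1 replicate left out it ran from 1 to 3, with 3 when either wild type was dropped: Bpifb1, Cyp17a1 and Gad1 without wild type replicate 1, and Tph1, Cyp11a1 and Gad1 without replicate 2. It was 2, Gad1 and Tgm4, without knockout replicate 2. In the 10 kb window it stayed 1, but the gene was Tgm4 and not Gad1. The count of genes lost in the C313Y set ran from 0 to 1 (Tgm4, without C313Y wild type replicate 1). Counts of regions and their alternatives were added after seeing the data. The 8 regions gained in the knockout set became 5 with a −log10 q of at least 3, and 0 with equal list length or all 6 wild types. The C313Y count of 1 became 0, and the C442G count of 4 became 2, against all 6 wild types. With equal list length the C442G set had 1 gained and 1 lost. With 1 replicate left out, regions gained ran from 10 to 14 in the knockout set, 2 to 6 in the C313Y set and 4 to 10 in the C442G set, and regions lost from 0 to 1, 0 to 5 and 0 to 5. A setting with 1 library in an arm has fewer libraries to agree.

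With the replicate number as a block, which left 16 assignments in the knockout and C442G sets and a smallest exact p of 0.125, 0 genes passed, and the median difference was 0.578. The deviations of libraries with the same number had a correlation of 0.0104 in the knockout set and 0.000631 in the C442G set. With 2 libraries per group this cannot show whether the numbers pair the samples, and the labels do not say. The C313Y lists hold no q, so a −log10 q minimum could not be set there, and they entered that alternative whole. Depth is unknown, and it was not tested how many weak peaks the shorter lists miss.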

Other observations

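The protein-coding genes whose covered share was most like that of an autoantigen gene were looked up for the 5 members with a peak in 4 to 11 libraries, and not for the other 5. By Pearson correlation over the 12 libraries, the genes most like Tph1 were Dand5 (0.973), Gadd45gip1 (0.970) and Dlx4 (0.964), and those most like Bpifb1 were Phyh (0.960), Rab34 (0.954) and Mchr1 (0.952). Those most like Cyp11a1 were Dok3, Smtn and Gm46752 (0.965, 0.965 and 0.964), those most like Cyp17a1 were Xpa, Ypel1 and Fkbp14 (0.936, 0.931 and 0.925), and those most like Gad1 were Ints1, Wnt3a and Rbpms2 (0.910, 0.893 and 0.891). All of these values share the libraries and their list lengths, they are the 3 highest for each member, and no test was made.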
